A study of Sus scrofa and Rattus norvegicus with 8 samples.

Results

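The 6 mitochondrially encoded genes of respiratory chain complexes III, IV and V were examined in pig fat: CYTB of complex III, COX1, COX2 and COX3 of complex IV, and ATP6 and ATP8 of complex V. They were found by gene symbol in a table of 25880 pig genes, in which 14857 genes carry a symbol and 13 are the protein-coding genes of the mitochondrial genome (mtDNA). The other 7 of those 13 encode complex I. RNA-seq was carried out on the upper layer of backfat, a subcutaneous white adipose depot, of 6 adult female Bama pigs aged 2 years, with 1 library per pig and no treatment. Total RNA depleted of ribosomal RNA was sequenced from stranded libraries, and the 2 rat libraries of the study were not analysed here. Levels are in TPM, a length-corrected abundance with the same total in every library. TPM keep no read counts, so the depth behind a value is unknown and its counting error could not be computed.

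All 8 adipocyte markers looked for (FABP4, ADIPOQ, LEP, PLIN1, CIDEC, LPL, PNPLA2 and LIPE) were over 1 TPM in every library. Replicates 4 and 5 stood apart from the other 4 libraries: named nuclear genes held 3.34% and 4.73% of their TPM, against 24.1 to 26.3% in the others. Values are given with and without them. With named nuclear genes scaled to the same total, the adipocyte markers shifted unevenly in replicates 4 and 5. PNPLA2 was at 163 and 130 there against 420 to 658 elsewhere, and LIPE at 577 and 423 against 1046 to 1519. PLIN1 was at 1351 and 1247 against 1506 to 2137, but CIDEC at 892 and 856 against 391 to 647. The other markers were each inside the range of the other libraries in replicate 4, replicate 5 or both. In whole tissue, fewer cells of a type and less RNA per cell cannot be told apart.

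The mtDNA is transcribed as long RNAs that span many genes and that are cut into single messages, mostly at the tRNA genes lying between them. The proteins made from these messages sit in the inner mitochondrial membrane beside subunits imported from the cytosol. Complex III passes electrons from ubiquinol to cytochrome c, complex IV passes them on to oxygen, and complex V uses the resulting proton gradient to make ATP. White adipocytes hold fewer mitochondria than muscle or brown fat, but rely on them for lipid synthesis and fatty acid oxidation.

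On the mitochondrial sequence of the RefSeq Sscrofa11.1 assembly all 6 genes lie on the plus strand, are coding over their whole length and have no intron. COX1 (ENSSSCG00000018075) spans 6511 to 8055, COX2 (ENSSSCG00000018078) 8203 to 8890, ATP8 (ENSSSCG00000018080) 8959 to 9162, ATP6 (ENSSSCG00000018081) 9120 to 9800, COX3 (ENSSSCG00000018082) 9800 to 10583 and CYTB (ENSSSCG00000018094) 15342 to 16481. The first 5 are thus neighbours, at positions 3 to 7 of the 13 genes in order, while CYTB is at position 13. Their lengths run from 204 bases for ATP8 to 1545 bases for COX1, and their GC content from 31.9% for ATP8 to 44.0% for COX3. There are 2 tRNA genes between COX1 and COX2 and 1 between COX2 and ATP8, but 0 between ATP8, ATP6 and COX3, which overlap.

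The overlaps are shown because reads that fall in them belong to 2 genes. ATP8 and ATP6 share 43 bases (MT:9120-9162, plus strand), with the start codon of ATP6 and the stop codon of ATP8 in capitals, and ATP6 and COX3 share 1 base, in the middle of the capitals that hold the stop codon of ATP6 and the start codon of COX3 (MT:9788-9814, plus strand).
ATP8 and ATP6 overlap: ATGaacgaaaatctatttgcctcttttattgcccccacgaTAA
ATP6 and COX3 junction: cgacaatacaTAATGacccaccaaaca
The last 30 bases of the other 4 genes show how the coding sequences end. The stop codon is in capitals where the DNA encodes it, and the last base is in capitals where, per RefSeq, added A residues complete it.
COX1 end (MT:8026-8055): gaagaaccaacatatatcaacctaaaaTAA
COX2 end (MT:8861-8890): aaaaatggtcaacatcaatattaacaggtT
COX3 end (MT:10554-10583): tttacgtatcaatctattgatgaggatccT
CYTB end (MT:16452-16481): atcatcgaaaacaacctattaaaatgaAGA
COX2 and COX3 thus depend on the tail for their stop codon, and CYTB ends in AGA, which is read as a stop in vertebrate mitochondria.

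Nuclear copies of mtDNA can share reads with these genes, so they were counted in the same assembly. Every member had nuclear matches of at least 80% identity, from 3 for ATP8 to 14 for COX2, COX3 and CYTB. The closest match over at least 90% of a gene was 98.5% identical for ATP8 (chromosome 9, 4701993 to 4702188) and 89.3 to 92.3% identical for the other 5. Those of COX1, COX2 and CYTB lie in 1 stretch of chromosome 2, where COX1 matches at 115564077 to 115565615 and CYTB at 115572887 to 115574025. The share of 31-base windows of a gene that also occur, letter for letter, in the nuclear genome was 64.9% for ATP8, 35.5% for COX1, 31.5% for COX2, 15.9% for COX3, 11.3% for CYTB and 10.4% for ATP6. Only 13 windows of COX3 lay in exons of RefSeq genes, and 0 of the other 5 members. How reads were divided between copies in the deposited values was not tested.

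The question put to the data was how abundant each member is in backfat and how far the proportions between members hold from pig to pig. All 6 members were among the 10 named genes of highest mean TPM in the table, and the rest of these were ND4L, ND4, ND3 and ND2 of complex I. With genes without a symbol included, the members ranked from 5 (COX2) to 18 (ATP8). They held 8.20%, 14.2%, 9.81%, 0.162%, 0.246% and 6.78% of all TPM in replicates 1 to 6.

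COX1, the subunit that holds the haem and copper centre where oxygen is reduced, had 18861, 21545, 21835, 854, 1282 and 14811 TPM in replicates 1 to 6. Its mean was 13198 ± 9730 TPM (SD, n = 6), and 19263 ± 3256 TPM (SD, n = 4) without replicates 4 and 5. Those 4 libraries were close to each other, and the lowest of them was 17.3 times above replicate 4 and 11.6 times above replicate 5. COX1 was the member whose level varied least, with a CV (SD over mean) of 0.737 over 6 libraries and 0.169 over 4.

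COX2, whose copper site takes electrons from cytochrome c, had 16734, 39179, 23966, 348, 525 and 20222 TPM. Its mean of 16829 ± 14829 TPM (SD, n = 6) was higher than that of any other named gene, and it was 25025 ± 9887 TPM (SD, n = 4) without replicates 4 and 5. Replicate 2 was the highest library and replicate 1 the lowest of the other 4. COX3, the third core subunit, which binds no metal, had 20143, 22119, 19441, 239, 343 and 12419 TPM. It averaged 12451 ± 9972 TPM (SD, n = 6), or 18531 ± 4229 TPM (SD, n = 4) without replicates 4 and 5. Unlike COX2, it was nearly level in replicates 1 to 3.

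CYTB, the haem protein of complex III that handles ubiquinol, had 10422, 11619, 11996, 54.6, 67.9 and 6580 TPM, and a mean of 6790 ± 5554 TPM (SD, n = 6), or 10154 ± 2476 TPM (SD, n = 4) without replicates 4 and 5. It was below all 3 COX genes in every library. Replicates 4 and 5 were 121 and 96.9 times below the lowest of the other 4 libraries, further than for any COX gene.

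ATP6, which forms part of the proton channel of ATP synthase, had 11984, 32266, 13171, 119, 165 and 8837 TPM, a mean of 11090 ± 11818 TPM (SD, n = 6), or 16564 ± 10626 TPM (SD, n = 4) without replicates 4 and 5. ATP8, a short membrane subunit of the same complex, had 3876, 15079, 7664, 7.496, 75.1 and 4936 TPM, a mean of 5273 ± 5633 TPM (SD, n = 6), or 7889 ± 5052 TPM (SD, n = 4) without them. Both had CVs of 1.07 over 6 libraries and 0.64 over 4, above those of the COX genes and CYTB. Replicate 2 was highest for both, and replicate 4 lay far below replicate 5 for ATP8 alone among the members.

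**Figure D1:**
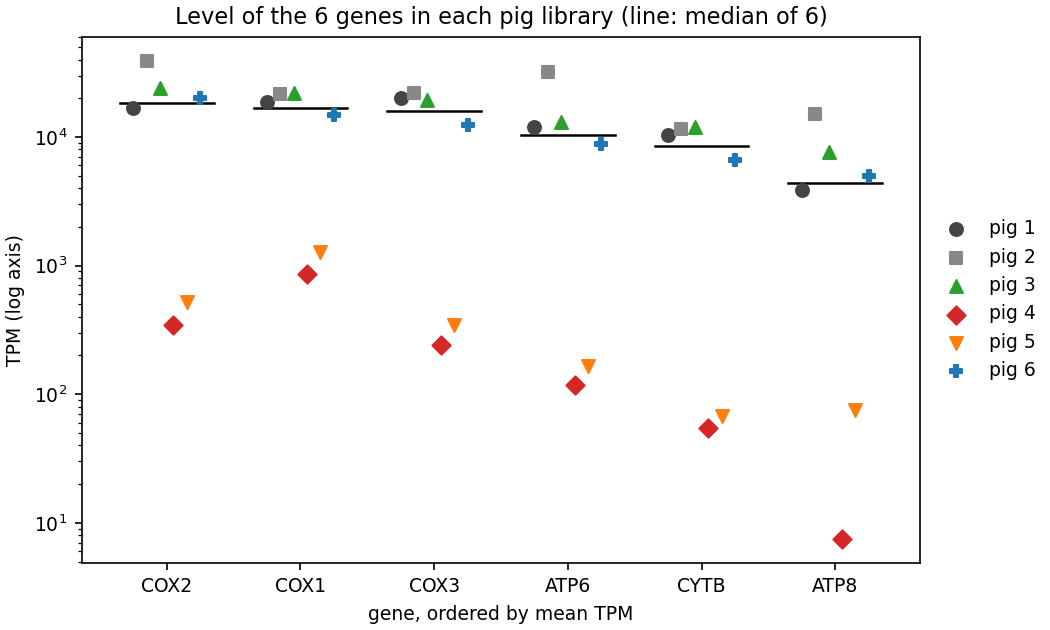
TPM on a log axis for the 6 genes, ordered by mean, with 1 point per pig library (numbered as the replicates) and a line at the median of 6. Replicates 4 and 5 lie below the other 4 libraries for every gene, by the least for COX1, and replicate 4 has ATP8 at 7.496 TPM.

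Because replicates 4 and 5 were low for most named genes, the deficit of each member was set beside that of nuclear genes. The median of 3693 named nuclear genes whose mean reached 10 TPM was 9.67-fold lower in replicate 4 and 7.13-fold lower in replicate 5 than the median of the other 4 libraries. On the log2 scale that is -3.27 and -2.83. All 6 members lay further down, from -4.56 and -3.98 for COX1 to -7.66 and -7.34 for CYTB, with ATP8 at -9.68 and -6.36. COX2, COX3 and ATP6 lay between, at -5.98, -6.37 and -6.72 in replicate 4.

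Complex I genes ranged from -4.95 (ND6) to -9.48 (ND4) in replicate 4 and from -4.35 to -9.35 in replicate 5. ND6, the gene of the opposite strand, and COX1 were thus the genes of the 13 with the smallest deficit. Across the 13 genes the mean log2 difference had r = -0.02 with GC content, r = -0.30 with length and r = -0.05 with the share of exact nuclear windows. These are descriptions over 13 genes of the same libraries, which are not independent. The cause of the unequal deficits was not tested.

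**Figure D2:**
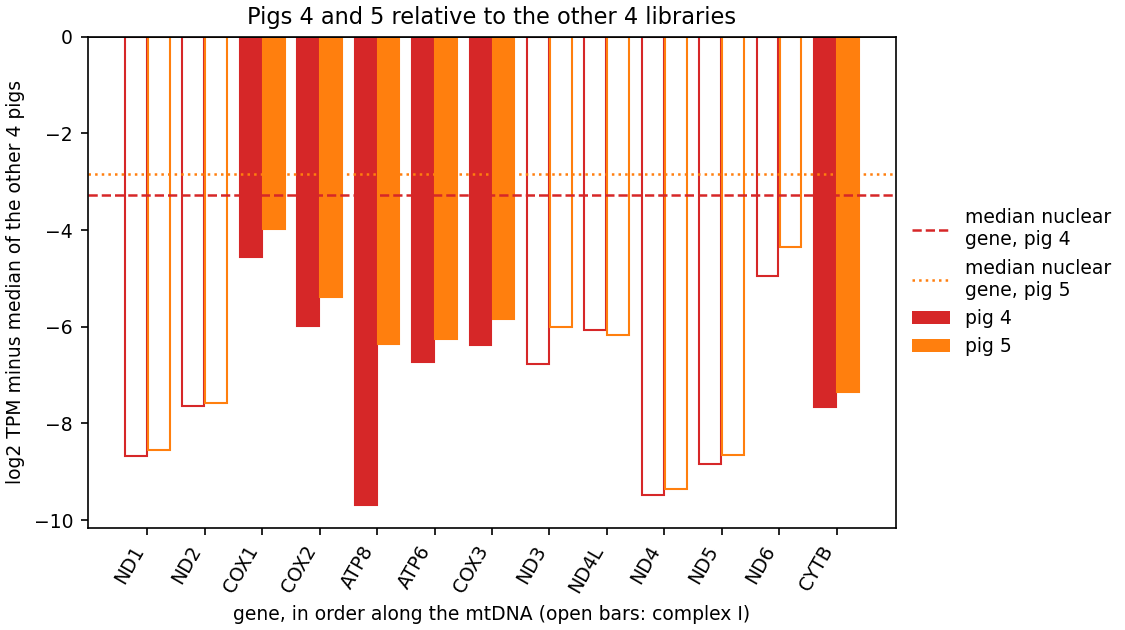
Log2 TPM of replicates 4 and 5 minus the median of the other 4 libraries, for the 13 mitochondrially encoded genes in their order on the mtDNA (filled bars for the 6 members, open bars for complex I), with lines at the median of named nuclear genes. Every bar passes its line, and COX1 has the shortest filled bars, at -4.56 and -3.98.

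The share of a gene in the TPM of the 13 mitochondrially encoded protein genes is free of the scale of the library. Together the 6 members held 60.7%, 66.8%, 56.4%, 77.6%, 82.3% and 62.9% in replicates 1 to 6, with a mean of 67.8% ± 10.1 (SD, n = 6), or 61.7% ± 4.32 (SD, n = 4) without replicates 4 and 5. The complex I genes held the rest. Replicates 4 and 5 were above all other libraries.

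COX1 moved with that difference. It held 40.8% and 43.0% in replicates 4 and 5, against 10.1 to 13.95% in the other 4 libraries. The COX2 share was 16.6% and 17.6% there, inside the range of 12.4 to 18.8% of the others, and the COX3 share was 11.4% and 11.5%, inside 10.4 to 14.9%. CYTB went the other way, with 2.61% and 2.28% against 5.47 to 7.71%. ATP6 held 5.68% and 5.51% against 7.58 to 15.2%, and ATP8 held 0.359% and 2.52% against 2.87 to 7.10%.

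With COX1 taken out of both sums, the other 5 members held 62.1% and 69.1% in replicates 4 and 5 and 50.2 to 63.0% in the other libraries, so only replicate 5 stayed above the range. Within that remainder COX2 held 28.1% and 30.8%, against 14.4 to 21.8% elsewhere. COX3 held 19.4% and 20.2%, against 11.6 to 17.3%, so that both were above the range. ATP6 held 9.60% and 9.67%, inside 8.67 to 16.9%. CYTB stayed below, with 4.41% and 3.99% against 6.09 to 8.96%. ATP8 held 0.606% and 4.41%, against 3.33 to 7.90%, and was below only in replicate 4. By complex, the 3 COX genes held 37.5 to 44.0% of the 13 genes in replicates 1, 2, 3 and 6 and 68.9% and 72.0% in replicates 4 and 5. The pair of complex V held 11.7%, 22.3%, 11.99%, 6.04%, 8.03% and 12.8% in replicates 1 to 6, with replicate 2 the highest.

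Over all 6 libraries the COX3 share was the steadiest of the members (11.8% ± 1.56, SD, n = 6, CV 0.132), followed by COX2 (16.3% ± 2.61, CV 0.161). The COX1 share had a CV of 0.680 (22.4% ± 15.2). Without replicates 4 and 5 the order changed. COX1 then had 12.6% ± 1.75 (SD, n = 4, CV 0.139) and CYTB 6.55% ± 0.971 (CV 0.148), and the least steady were ATP6 and ATP8 with CVs of 0.354 and 0.370.

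**Figure D3:**
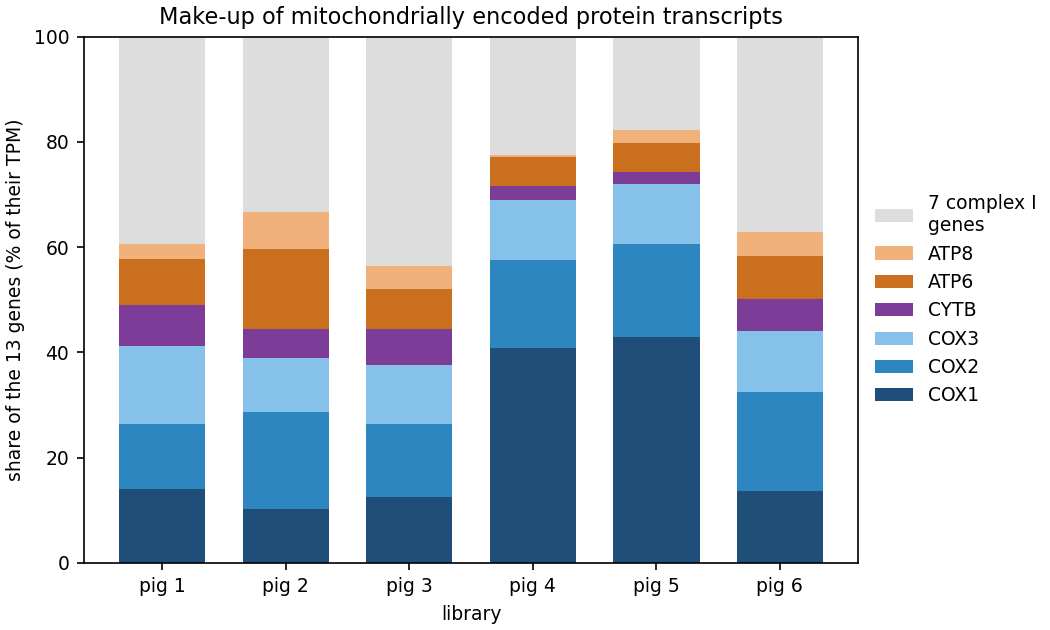
Share of each of the 6 genes in the TPM of the 13 mitochondrially encoded protein genes (per cent, stacked) in each pig library, with the 7 complex I genes in grey. COX1 takes 40.8% and 43.0% in replicates 4 and 5 and at most 13.95% elsewhere, and ATP6 and ATP8 take their largest shares in replicate 2.

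The order of the members was then compared within each library, as the log2 ratio of TPM for the 15 pairs. The ratios pair genes of the same library, and were tested by an exact two-sided sign-flip permutation test over the 6 pigs, whose smallest p is 0.03125. In 9 of 15 pairs the same gene was higher in all 6 libraries, and each of these had that smallest p, which became 0.0521 after Benjamini-Hochberg adjustment over the 15 pairs. No pair therefore passed a threshold of 0.05 after adjustment. Without replicates 4 and 5 the same 9 pairs were of 1 direction in 4 of 4 libraries, where the smallest exact p is 0.125.

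COX2 was above ATP6 (2.01-fold as a geometric mean, 1.21 to 3.19), above CYTB (3.43-fold, 1.61 to 7.73) and above ATP8 (6.00-fold, 2.60 to 46.4) in 6 of 6 libraries. COX1 was above CYTB (3.99-fold, 1.81 to 18.9) and above ATP8 (6.98-fold, 1.43 to 114) in 6 of 6, and COX3 was above CYTB (2.51-fold, 1.62 to 5.06) and ATP8 (4.38-fold, 1.47 to 31.9). ATP6 was above CYTB (1.71-fold, 1.10 to 2.78) and above ATP8 (2.98-fold, 1.72 to 15.8).

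The 3 subunits of complex IV had no fixed order. The log2 ratio of COX2 to COX1 averaged -0.22 ± 0.900 (SD, n = 6), with COX2 higher in 3 of 6 pigs (exact p = 0.5625, adjusted p = 0.5625). COX2 was higher than COX3 in 5 of 6 (adjusted p = 0.0852 by the exact permutation test) and COX1 higher than COX3 in 4 of 6 (adjusted p = 0.144 by the same permutation test). CYTB and ATP8 were also not ordered, with CYTB higher in 4 of 6 (exact adjusted p = 0.167). Neighbours in the order of the means were therefore not separated beyond their spread, except ATP6 over CYTB, which held in every library without passing the adjusted threshold, and which did not hold in TPM multiplied by gene length (mean log2 ratio 0.029).

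ATP6 and ATP8 overlap by the 43 bases shown above and are known to be read from a shared message. Their TPM nonetheless differed, with ATP6 over ATP8 by 3.09-fold in replicate 1, 2.14-fold in replicate 2, 1.72-fold in replicate 3, 15.8-fold in replicate 4, 2.19-fold in replicate 5 and 1.79-fold in replicate 6. ATP8 is the shortest member, and its length-corrected value rests on few positions. The part of length in the gap was not tested.

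**Figure D4:**
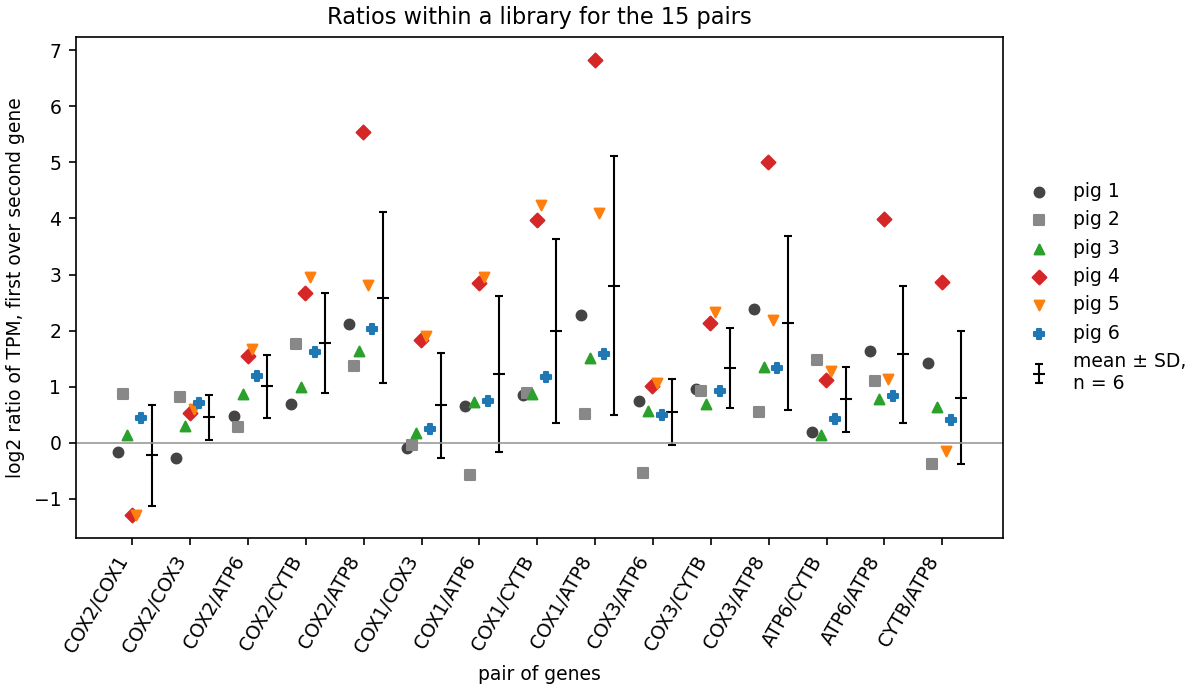
Log2 ratio of TPM of the first over the second gene for the 15 pairs of members, with 1 point per pig library and the mean ± SD of 6 in black. In 10 pairs replicates 4 and 5 both lie on the same side of the other 4 libraries, most clearly for COX1 over CYTB, at 3.97 and 4.24 against 0.86 to 1.17.

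Stability of the proportions was measured as the SD over libraries of each log2 ratio, where 0 means a constant proportion. Among members the median SD of the 15 pairs was 0.936 (0.394 for COX2 to COX3, 2.30 for COX1 to ATP8). It was 0.973 for the 21 pairs of complex I genes and 1.16 for the 42 pairs of a member with a complex I gene. Nuclear subunits of complexes III, IV and V held their proportions more closely, with a median SD of 0.356 over 351 pairs. A member with a nuclear subunit had a median SD of 2.41 over 162 pairs. No test was made between these sets, whose pairs share genes and libraries.

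Without replicates 4 and 5 the median SD was 0.492 for members, 0.312 for complex I genes, 0.417 between them and 0.182 for nuclear subunits, while a member with a nuclear subunit came to 0.505. The members then fell into sets, seen only after the values were read. COX1, COX3 and CYTB held their proportions with SDs of 0.119 to 0.166, such that COX3 was 1.62 to 1.93 times CYTB, COX1 was 1.81 to 2.25 times CYTB and COX1 was 0.936 to 1.19 times COX3. COX2, ATP6 and ATP8, which are consecutive genes, had SDs of 0.343 to 0.406 among themselves and of 0.443 to 0.749 with the first set. The place of ATP6 in this second set rested on replicate 2. The log2 ratio of COX1 to ATP6 was -0.583 there, against 0.654, 0.729 and 0.745 in replicates 1, 3 and 6. In replicates 1, 3 and 6 ATP6 held its proportion to COX2 less closely, with log2 ratios of COX2 to ATP6 of 0.482, 0.864 and 1.19. COX3, the next gene along, was in the first set. The complex I gene ND4 was as close to ATP6 (0.344) and COX2 (0.379), but not to ATP8 (0.532).

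With complex I genes, COX1, COX3 and CYTB had a median SD of 0.244 and COX2, ATP6 and ATP8 one of 0.619 over 21 pairs each. The pairs of COX1, COX3 or CYTB with a complex I gene ran from 0.115 (CYTB and ND4L) to 0.615 (COX3 and ND6). Complex I genes among themselves ran from 0.027 to 0.722. Close proportions were thus not particular to COX1, COX3 and CYTB. In replicate 2 COX2, ATP6 and ATP8 were each at their highest level, at 39179, 32266 and 15079 TPM. COX3 was also at its highest there, at 22119 TPM, while COX1 and CYTB were highest in replicate 3. The 3 skeletal muscle markers found of 7 (ACTA1, CKM and TNNT3) summed to 2.65 TPM in replicate 2 and to 0.0316 to 1.03 TPM elsewhere, with TNNT3 at 0 in replicate 6. ACTA1 and TNNT3 were highest in replicate 2, but CKM was not, with 0.440 TPM there against 0.572 in replicate 1 and 0.605 in replicate 6. Their part in the result was not tested.

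**Figure D5:**
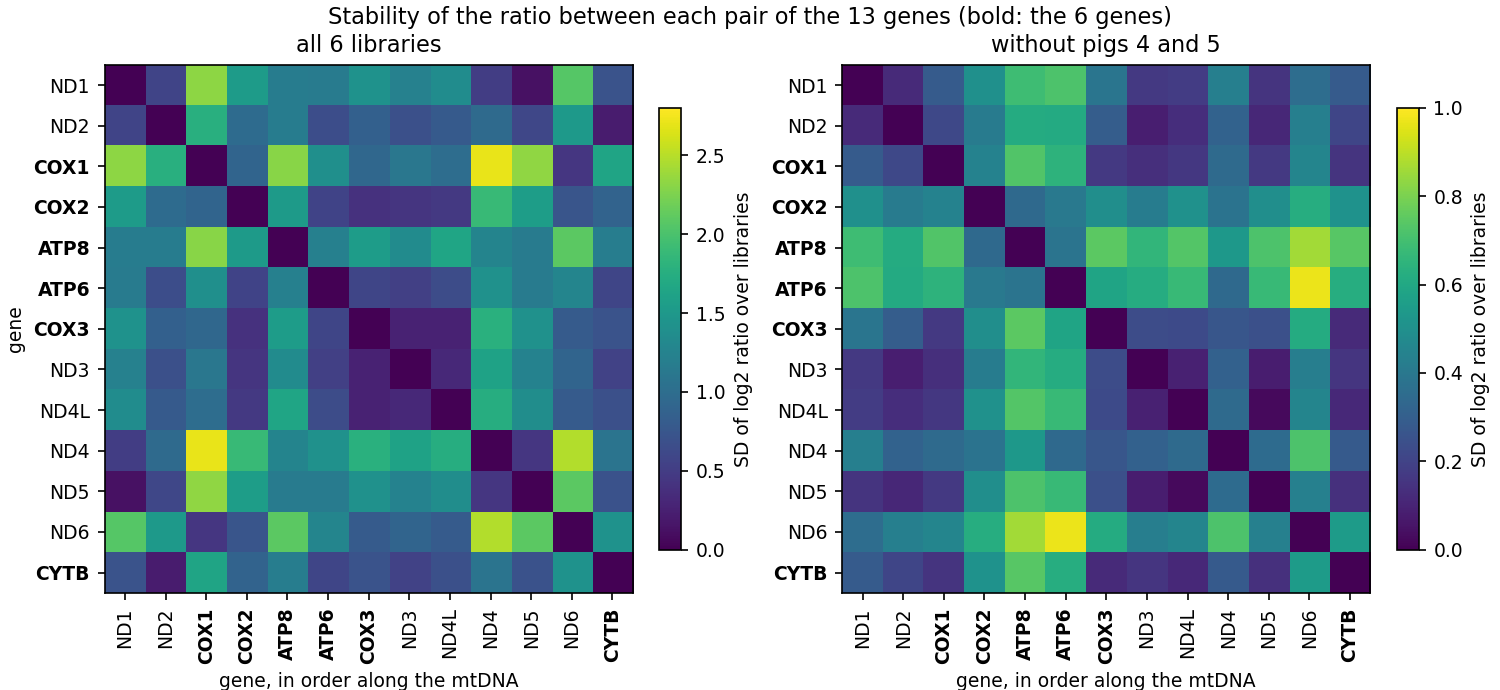
SD over libraries of the log2 ratio for each pair of the 13 mitochondrially encoded genes, in their order on the mtDNA, over 6 libraries (left) and without replicates 4 and 5 (right, with another colour scale). On the right COX2, ATP8 and ATP6 form lighter bands against most other genes. The complex I gene ND6 does so too, from 0.356 with ND1 to 0.969 with ATP6. The pairs of COX1, COX3 and CYTB are dark, at 0.119 to 0.166.

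The members were last set beside the nuclear subunits of their own complexes, which the cytosol supplies. Of the nuclear lists, 7 of 9 complex III genes, 10 of 12 complex IV genes and 10 of 16 complex V genes were found. Their median levels were 18.7, 35.3 and 33.1 TPM, against a median of 11770 TPM over the 6 members. COX4I1, a regulatory subunit of complex IV, was the highest of its list at 128 TPM and COX7A1, the muscle-type isoform, the lowest at 3.06 TPM. UQCR10 at 40.8 TPM and CYC1, cytochrome c1, at 16.1 TPM bounded complex III. ATP5IF1, the inhibitor of ATP synthase, at 120 TPM and ATP5F1D at 4.95 TPM bounded complex V.

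CYTB was 284 to 543 times the median of the nuclear complex III genes in replicates 1, 2, 3 and 6, and 9.48 and 6.17 times in replicates 4 and 5. The mean of the 3 COX genes was 359 to 638 times that of nuclear complex IV genes in the first 4 and 58.2 and 38.8 times in the other two. For ATP6 and ATP8 the values were 175 to 608 and 5.82 and 6.44 times. A scale factor per library cancels in these ratios. The nuclear subunits in the denominator themselves stood higher in replicates 4 and 5 once named nuclear genes were scaled to the same total. Their medians were then 172 and 233 against 88.0 to 108 rescaled TPM for complex III, 247 and 390 against 158 to 207 for complex IV, and 325 and 393 against 147 to 182 for complex V. The lower ratios thus hold both lower members and higher nuclear subunits.

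Finally, the genes most like each member over the 6 libraries were listed, by the lowest SD of the log2 ratio among 4526 genes of at least 10 mean TPM that were above 0 in every library and are not members. For CYTB it was ND2 of complex I (SD 0.214). For COX3 it was the transcription factor gene MEF2D (0.251), then ND4L (0.264) and ND3 (0.266). For COX2 it was EPAS1, a hypoxia-inducible factor (0.218), and for COX1 it was TANC1 (0.129). A gene without a symbol was nearest to ATP6 (0.240), followed by ND3 (0.526). ATP8 had no close match, since the nearest, the matrix proteoglycan gene BGN, had an SD of 1.05. The median SD over all those genes was 0.730 for COX1 and 2.27 for CYTB. Without replicates 4 and 5, 0 of the 3 genes listed for each member were still among its 3 nearest. The ratios to complex I genes themselves varied about as little there, with SDs of 0.208 for CYTB and ND2, 0.224 for COX3 and ND4L and 0.231 for COX3 and ND3. With genes down to a mean of 1 TPM admitted, FRMD4A (0.0811) was nearest to COX1 and GPR4 (0.929) to ATP8, and 0 of the 3 genes found with a minimum of 10 TPM were among the 3 nearest of either.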

How the data were processed

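The deposited table holds gene-level TPM. Per the submitters' processing notes the authors used kallisto 0.43.0, on rRNA-depleted, stranded, paired-end libraries, with Sscrofa11.1 as the pig build. The gene annotation release behind the deposited table and the strand setting are not given in the sources used here. TPM divide estimated reads by an effective transcript length, so values of genes shorter than the sequenced fragments are the least certain, and they keep no depth. A symbol was found for 14857 of 25880 IDs, and coordinates and sequences are from RefSeq. Whether the mitochondrial sequence behind the deposited table is the RefSeq one was not tested.

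Shares, log2 ratios (no pseudocount, all members above 0) and SDs were computed with Python 3.11.15 and pandas 2.3.3. Ratios were tested by an exact two-sided sign-flip permutation test with Benjamini-Hochberg adjustment over 15 pairs, tested on simulated data. Nuclear matches were found with BLAST+ 2.17.0 (E-value at most 1e-10) and by an exact search of 31-base windows on both strands. Rescaled TPM set the named nuclear genes of each library to a total of 1000000.

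Replicate numbers follow the sample titles, and 0 library pairs held identical values. Named genes were the members, the complex I genes, the 3 genes most like each member and the highest and lowest gene of each list of nuclear subunits, assembly factors, transcription and RNA handling. Members and lists were chosen with earlier results of these data known.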

Additional observations from a re-analysis of the deposited data

Results flagged for a closer look

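Of 29 sets of 6 pig values examined (levels, shares and log2 ratios of the members, which share genes and libraries), 5 had a library whose gap to its nearest neighbour was a larger part of the range than Dixon's limit for 6 values, where chance alone marks about 1 in 20 sets. The COX3 share was 14.9% in replicate 1, against 10.4 to 11.5% in the other 5. The ATP6 share was 15.2% in replicate 2, and in the same library the log2 ratio of COX3 to ATP6 was -0.545, the only value below 0. The log2 ratio of COX2 to ATP8 was 5.54 and that of ATP6 to ATP8 was 3.99 in replicate 4, in which ATP8 had 7.496 TPM.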

How the results depend on the processing

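No paired analysis was possible because the pigs form 1 group and the replicate numbers they share with the rat libraries pair no animals. The summed TPM of the members (65631 ± 55166, SD, n = 6) shifted by more than 1 SD when rescaled over named nuclear genes (274854) or over genes with a symbol (171364), since fewer genes then share the total. With each library left out in turn it was 50396 to 78432, the summed share was 64.9 to 70.1%, the median SD of the ratios was 0.710 to 1.02 and the count of pairs with 1 direction was 9 to 11 of 15. Without replicate 2, mean ATP6 was 6855 TPM and mean ATP8 was 3312 TPM. The pair count was 9 without replicates 4 and 5, where the smallest exact p is 0.125, so that no pair could pass there, nor with 5 libraries (0.0625). The median SD of the ratios was 0.936 over 6 libraries and 0.492 without replicates 4 and 5. Multiplying TPM by full gene length only approximates a share of reads, since TPM divide by an effective length. It is least certain for short genes such as ATP8. This multiplication took the adjusted p of 11 pairs under 0.05 by the exact permutation test. It adds the same amount to the log2 ratio of a pair in every library, and so raises longer genes over shorter ones. The number of pairs with 1 direction became 11, and the adjusted value of their smallest p depends on that number (0.0426 in place of 0.0521). The lower adjusted p therefore follows from gene lengths and gives no further evidence of an order. ATP6 over CYTB, of 1 direction in every library in TPM, then had a mean log2 ratio of 0.029 (exact adjusted p = 0.9375), and COX2 over CYTB had an exact adjusted p of 0.0721. The COX1 share became 36.1%, with COX2 at 12.3%, COX3 at 10.2% and ATP8 at 0.847%. The share without COX1 was added after the data were seen. The limits set by depth could not be compared, since TPM do not show it.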

Other observations

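Genes that serve the members from the nucleus were far less abundant than the members. Of the mtDNA transcription genes, 5 of 5 were found, with a median of 3.64 TPM, from TEFM, an elongation factor, at 2.496 TPM to TFAM, which packages mtDNA and starts transcription, at 10.5 TPM. Of the RNA handling genes 13 of 14 were found, with a median of 3.91 TPM, from PTCD1 at 1.46 TPM to SLIRP, a partner of the mRNA-stabilizing LRPPRC, at 26.9 TPM. Assembly factors had medians of 2.799 TPM for complex III (6 of 6 found, BCS1L at 0.437 TPM to TTC19 at 6.25 TPM), 4.52 TPM for complex IV (11 of 14 found, SCO2 at 0.745 TPM to the copper chaperone COX17 at 97.3 TPM) and 9.87 TPM for complex V (3 of 3 found, ATPAF2 at 3.29 TPM to ATPAF1 at 10.1 TPM).

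On the scale of rescaled TPM the medians of these lists differed less between libraries than the median of the members. The lists belong to the named nuclear genes that set this scale and the members do not, so the scale itself favours that difference. RNA handling genes had medians of 22.2 to 23.2 rescaled TPM in replicates 1, 2, 3 and 6. In replicates 4 and 5 their medians were 19.6 and 21.1. Transcription genes had medians of 17.1 to 24.1 against 11.7 and 12.7. The median of the 6 members was 40340 to 90581 against 5362 and 5365. Behind the medians of the lists, single genes shifted in both directions. SLIRP was higher in replicates 4 and 5, at 433 and 489 rescaled TPM against 100 to 151 elsewhere. TFAM was also higher there, at 86.8 and 87.3 against 51.2 to 60.6. POLRMT was lower, at 10.6 and 8.90 against 17.1 to 24.1, and so was PNPT1, at 41.5 and 31.2 against 57.4 to 71.6.

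Of the markers of thermogenic fat, 4 of 7 were found (PPARGC1A, DIO2, ELOVL3 and COX7A1). Their median was 0.207 TPM, with COX7A1 the highest at 3.06 TPM. UCP1, CIDEA and COX8B were not found by symbol, so their levels could not be read. Markers of heart muscle (3 of 5 found) had a median of 0.380 TPM.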
